A study of Homo sapiens with 6 samples.

Results

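A set of 10 clotting genes is described here in Huh7, an established human hepatoma cell line, with and without a CRISPR guide against HNRNPA2B1. They are the fibrinogen chain genes FGA, FGB and FGG, the factor genes F2, F5 and F10, plasminogen (PLG), tissue factor (F3) and the tissue factor pathway inhibitors TFPI and TFPI2. They were chosen by symbol, with earlier results of these data known. Each matched 1 row of the count table, and together they are 10 of 25202 rows and 10 of the 16331 tested. The study has 3 libraries of cells with the HNRNPA2B1 guide, labelled KO, and 3 of cells with a control guide (sgNC), labelled WT. Both groups are plain cultures of the same line with no further treatment on the labels. The labels do not say whether knockout cells were 1 clone or a pool, where the guide cuts, or whether libraries came from separate cultures. P-values therefore cover only library-to-library spread, which can be technical.

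Clotting starts when tissue factor at a cell surface binds factor VII and activates factor X. Activated factor X, with factor V as cofactor, converts prothrombin to thrombin, and thrombin cuts fibrinogen into fibrin. Tissue factor pathway inhibitor blocks the first steps, and plasmin, made from plasminogen, dissolves the clot. Hepatocytes make most circulating fibrinogen, prothrombin, factor X and plasminogen, whereas tissue factor is mostly made by cells outside the vessel lumen.

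The promoters of the fibrinogen genes, which fell, and of F3 and TFPI2, which rose, are shown first. They were picked with these results known, and the windows of F2, F5, F10, PLG and TFPI are not printed. FGB, FGA and FGG lie side by side on chromosome 4. Each line holds the 250 bases before the RefSeq start (GRCh38.p14), 5′ to 3′ on the gene's strand. Capitals mark matches, on either strand, to CTGGGA (a core of interleukin-6 response elements), TGANTCA (AP-1) and GGGCGG (the GC box). FGA lies at chr4:154590743-154590992 on the minus strand, FGB at chr4:154562730-154562979 on the plus strand and FGG at chr4:154612657-154612906 on the minus strand. F3 lies at chr1:94541760-94542009 and TFPI2 at chr7:93890754-93891003, both on the minus strand.
FGA: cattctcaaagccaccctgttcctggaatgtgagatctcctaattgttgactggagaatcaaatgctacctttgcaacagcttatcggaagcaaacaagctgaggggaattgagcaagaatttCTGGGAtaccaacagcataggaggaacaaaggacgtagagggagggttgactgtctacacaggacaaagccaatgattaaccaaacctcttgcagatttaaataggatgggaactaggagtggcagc
FGB: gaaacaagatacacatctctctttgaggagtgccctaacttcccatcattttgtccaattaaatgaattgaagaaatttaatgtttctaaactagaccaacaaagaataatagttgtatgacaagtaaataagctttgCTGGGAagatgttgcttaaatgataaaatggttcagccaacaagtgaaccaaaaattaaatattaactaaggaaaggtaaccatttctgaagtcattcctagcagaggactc
FGG: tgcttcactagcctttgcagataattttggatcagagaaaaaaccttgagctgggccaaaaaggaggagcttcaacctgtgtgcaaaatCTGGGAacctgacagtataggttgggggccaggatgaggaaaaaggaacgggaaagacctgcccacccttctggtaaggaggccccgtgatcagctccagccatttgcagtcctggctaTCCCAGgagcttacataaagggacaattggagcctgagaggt
F3: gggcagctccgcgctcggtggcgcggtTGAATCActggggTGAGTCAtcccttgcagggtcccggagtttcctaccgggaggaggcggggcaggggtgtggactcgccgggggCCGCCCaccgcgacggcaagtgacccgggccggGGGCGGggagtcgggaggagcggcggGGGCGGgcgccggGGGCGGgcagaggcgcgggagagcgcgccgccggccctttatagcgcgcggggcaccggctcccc
TFPI2: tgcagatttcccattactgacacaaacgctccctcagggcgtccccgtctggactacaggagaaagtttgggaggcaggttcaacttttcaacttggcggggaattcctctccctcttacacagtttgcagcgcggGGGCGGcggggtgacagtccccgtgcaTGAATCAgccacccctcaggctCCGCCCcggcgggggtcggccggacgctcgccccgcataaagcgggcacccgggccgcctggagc

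All 10 genes had such a window. CTGGGA was found in 7 of 10 windows, all but those of F3, TFPI and TFPI2, against 28.8% of 27305 RefSeq promoters searched the same way. TGANTCA was found in 2 of 10, those of F3 and TFPI2, against 6.60% of all promoters, and F3 held 2 matches. GGGCGG was found in F10, F3 and TFPI2, 3 of 10, against 42.3% of all promoters. No 2 matches overlapped in these windows. CpG dinucleotides numbered 34 in the F3 window and 20 in the TFPI2 window, against 0 to 9 in the other 8 and a median of 11 over all promoters. TFPI, which fell, had none of these matches, and F10, which fell, had GGGCGG as well as CTGGGA. These are matches of letters and show no binding, and a link to the direction of change was not tested.

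The depth was 32517757 to 38870244 counts per library. The targeted gene was checked first. HNRNPA2B1, an RNA-binding protein of the hnRNP family, had 8729, 8232 and 8364 counts in the knockout libraries against 40867, 32755 and 44149 in the controls. It was 5.29-fold lower in the knockout (edgeR quasi-likelihood test, adjusted p = 2.28e-06), so a part of its counts remained. Of 7 hepatocyte markers, 6 fell, beside 19.0% of all genes tested, and TTR did not pass. TTR had a log2 fold change of 0.22 ± 0.14 (SE). It was higher and called with library size alone, with cyclic loess and without control replicate 2. APOB fell, but its groups overlapped, at 1494 to 1982 CPM in the knockout and 1949 to 3291 CPM in the controls. The summed level of the 7 markers was 10243 to 11206 CPM in the knockout against 16370 to 19888 CPM in the controls. Albumin averaged 2979 ± 119 CPM in the knockout and 4899 ± 902 CPM in the controls (SD, n = 3 each). SERPINA1, APOA1, AFP and transferrin (TF) had log2 fold changes of −1.64 ± 0.12, −1.73 ± 0.19, −0.80 ± 0.10 and −0.77 ± 0.11 (SE), and AFP and albumin lost their calls with cyclic loess (adjusted p = 0.0613 and 0.179). In bulk RNA, fewer cells of a type and less RNA per cell cannot be told apart.

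Of the 10 clotting genes, 8 fell and 2 rose in knockout cells (edgeR quasi-likelihood test, Benjamini-Hochberg adjusted p below 0.05). Over all genes tested, 19.0% fell and 21.1% rose. The 3 fibrinogen genes, F2, F5, F10, PLG and TFPI fell, whereas F3 and TFPI2 rose. For the 8 that fell every knockout library lay below every control library, as for 24.8% of all genes, although for F10 this held with TMM factors and not by library size. For the 2 that rose every knockout library lay above, as for 29.6% of all genes. The median log2 fold change of the 10 was −0.83, against 0.05 over all genes tested. Levels below are CPM, counts scaled to library size with TMM factors, unless stated.

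**Figure D1:**
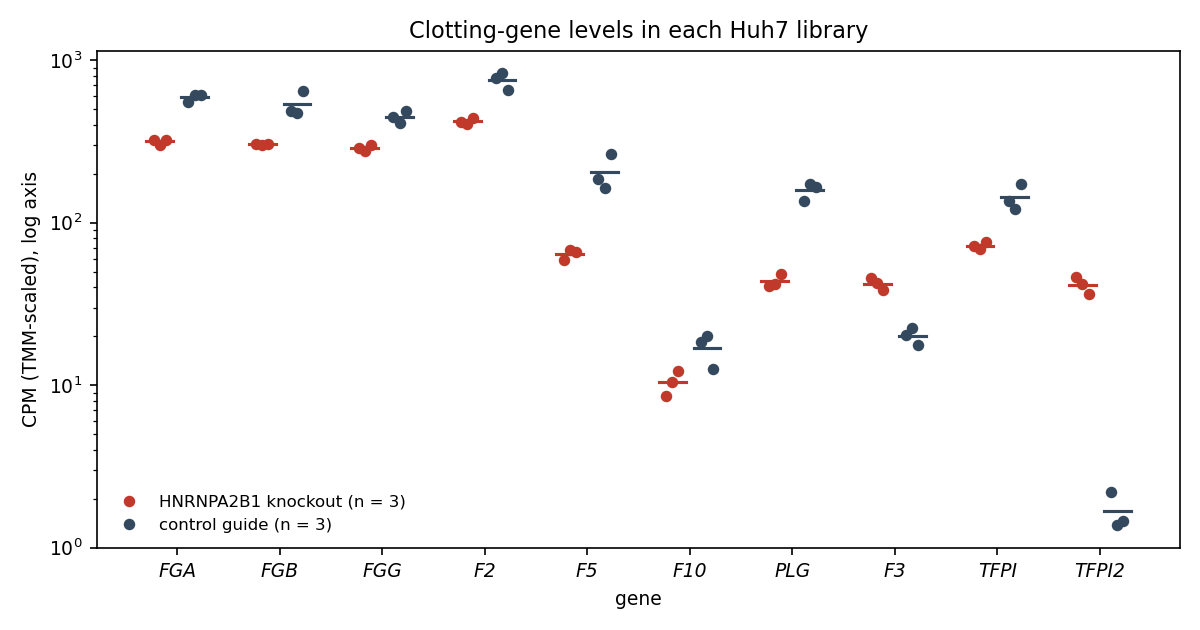
CPM (TMM-scaled, log axis) of the 10 genes in each library, with 3 HNRNPA2B1 knockout libraries left of 3 control libraries per gene; points are libraries and lines are group means. Knockout points lie below control points for 8 genes, and above them for F3 and TFPI2; TFPI2 averaged 41.6 CPM in the knockout and 1.68 CPM in the controls.

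The fibrinogen genes fell together, by less than a factor of 2. They encode the Aα, Bβ and γ chains, which assemble into 1 secreted hexamer. FGA had 324, 302 and 324 CPM in knockout libraries 1 to 3, against 551, 613 and 606 CPM in control libraries 1 to 3. FGB had 306, 302 and 303 CPM in the knockout, against 485, 469 and 648 CPM in the controls. FGG had 289, 276 and 301 CPM in the knockout, against 445, 408 and 486 CPM in the controls. The knockout libraries were close to each other for all 3 chains, and the high control was replicate 3 for FGB and FGG and replicate 2 for FGA. The log2 fold changes were −0.90 ± 0.10 for FGA, −0.81 ± 0.13 for FGB and −0.63 ± 0.10 for FGG (SE; edgeR adjusted p = 0.000104, 0.000968 and 0.00116). Together the 3 genes took 0.0991%, 0.0945% and 0.0970% of all counts in the knockout libraries, against 0.141%, 0.139% and 0.161% in the controls. This share uses no TMM factor, but like scaling by library size it depends on the other RNA in each library. Its 2-sided exact permutation p was 0.1, the smallest that 3 against 3 allows. With cyclic loess scaling the log2 fold changes were smaller, −0.62 for FGA, −0.52 for FGB and −0.36 for FGG, and each still passed.

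The balance of the chains was read as ratios of counts within a library. FGA over FGG was 1.12, 1.09 and 1.08 in the knockout, against 1.24, 1.504 and 1.25 in the controls, so the groups did not overlap. The log2 ratio was lower by 0.27 in the knockout, or 0.83 times the control ratio. FGA over FGB was 1.06, 0.999 and 1.07 in the knockout, within the control values of 1.14, 1.31 and 0.936. FGB over FGG was 1.06, 1.09 and 1.01 in the knockout and 1.09, 1.15 and 1.33 in the controls, which overlap. Over 6 ratios the exact permutation p was 0.1 for FGA over FGG, 0.6 for FGA over FGB and 0.2 for FGB over FGG (2-sided), and 0.15, 0.6 and 0.24 after Benjamini-Hochberg adjustment. The sign for FGA over FGB was not stable: its log2 difference was −0.098, and 0.016 without control replicate 2.

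The factors of the common pathway fell as well. F2, which encodes prothrombin, had 415, 404 and 442 CPM in the knockout, against 779, 829 and 655 CPM in the controls. Control replicate 3 was the lowest control and still lay above each knockout library. Its log2 fold change was −0.84 ± 0.11 (SE, edgeR adjusted p = 0.000322), and −0.54 with cyclic loess, where it still passed. F5, the cofactor of factor Xa, had 58.7, 67.8 and 66.0 CPM in the knockout, against 186, 164 and 265 CPM in the controls. It was 3.19-fold lower in the knockout, the 159th lowest log2 fold change of 16331 genes (−1.67 ± 0.17 SE, edgeR adjusted p = 7.23e-05). The controls spread more than the knockout libraries, with an SD of 52.9 against 4.80 CPM in the knockout.

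F10, which encodes factor X, had the highest adjusted p of the 10. It had 8.59, 10.4 and 12.2 CPM in the knockout, against 18.4, 20.1 and 12.6 CPM in the controls. Knockout replicate 3 and control replicate 3 were nearly equal, and by library size alone, without TMM factors, they had 12.8 and 11.6 CPM, so the groups overlapped. Its log2 fold change was −0.71 ± 0.20 (SE, edgeR adjusted p = 0.0179). The call was lost without knockout replicate 1 (0.0812), knockout replicate 2 (0.0575) or control replicate 2 (0.0629), and with library size as the scaling (0.0579).

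Plasminogen, the precursor of the clot-dissolving protease plasmin, had the lowest log2 fold change of the 10, ahead of F5 except without control replicate 2 (−1.80 for PLG and −1.83 for F5). PLG had 40.7, 41.9 and 48.6 CPM in the knockout, against 136, 173 and 166 CPM in the controls. The highest knockout library was well below the lowest control. PLG was 3.62-fold lower in the knockout, the 107th lowest of 16331 genes (log2 fold change −1.86 ± 0.13 SE, edgeR adjusted p = 7.76e-06). Plasminogen-like PLGLB1 and PLGLB2, which share its sequence, had 16 to 33 and 18 to 26 counts in the knockout libraries, against 21 to 30 and 8 to 22 in the controls. PLG itself had 1471 to 1738 counts in the knockout and 4982 to 5292 in the controls. The apolipoprotein(a) gene LPA, a further relative, had 0 to 4 counts in the knockout and 0 to 5 in the controls. PLG fell further than F2: PLG over F2 was 0.0981, 0.104 and 0.110 in the knockout, against 0.174, 0.209 and 0.253 in the controls. That ratio was 0.50 times the control ratio (exact permutation p = 0.1, 2-sided; 0.15 adjusted over 6 ratios).

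Tissue factor and its inhibitor moved in opposite directions. F3, the cell-surface receptor that starts coagulation, had 45.4, 42.4 and 38.7 CPM in the knockout, against 20.3, 22.3 and 17.6 CPM in the controls. Each knockout library was above each control. F3 was 2.10-fold higher in the knockout (log2 fold change 1.07 ± 0.13 SE, edgeR adjusted p = 0.00018). TFPI, whose Kunitz domains bind factor Xa and the factor VIIa complex, had 71.4, 68.3 and 76.4 CPM in the knockout, against 136, 122 and 172 CPM in the controls. It was 1.99-fold lower in the knockout (log2 fold change −0.99 ± 0.14 SE, edgeR adjusted p = 0.00042). F3 over TFPI, as a ratio of counts, was 0.636, 0.621 and 0.507 in the knockout, against 0.150, 0.183 and 0.102 in the controls. The ratio was 4.15-fold higher in the knockout, with no overlap (exact permutation p = 0.1, 2-sided; 0.15 adjusted over 6 ratios). These are RNA counts and do not measure protein or clotting activity.

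**Figure D2:**
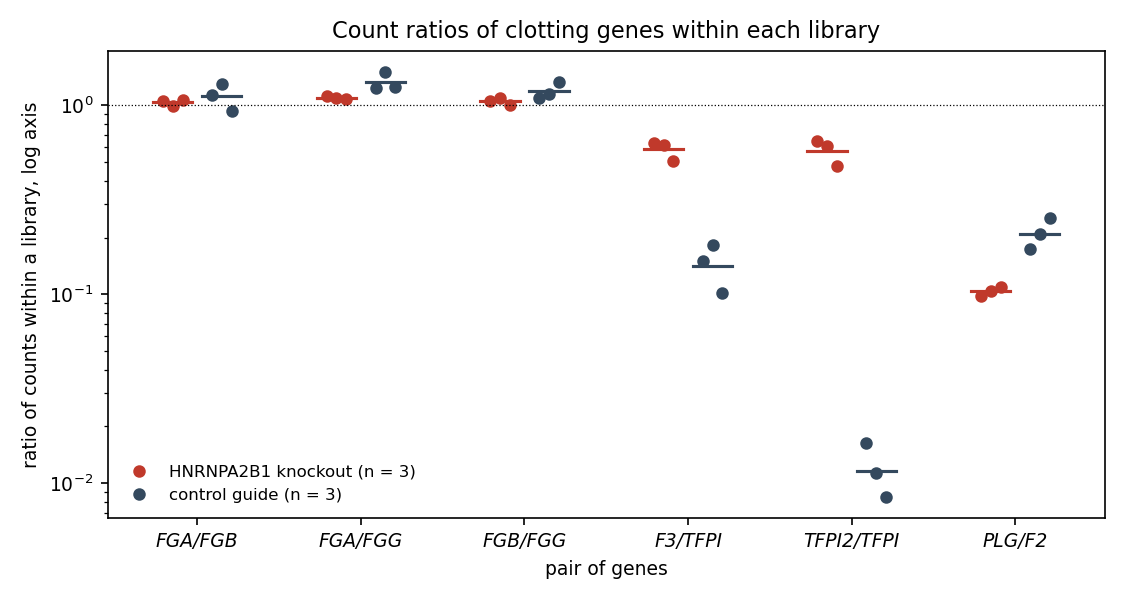
Ratio of counts of 2 genes within a library (log axis), knockout left of control, for 6 pairs; points are libraries and lines are geometric means of 3. F3/TFPI and TFPI2/TFPI lie higher in all knockout libraries and PLG/F2 and FGA/FGG lower, while FGA/FGB and FGB/FGG overlap.

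TFPI2 had the largest change of the 10. It encodes a Kunitz-type inhibitor of plasmin and other serine proteases, found mostly in extracellular matrix. TFPI2 had 1847, 1468 and 1304 counts in the knockout, against 82, 42 and 44 in the controls. Scaled, these were 46.5, 41.8 and 36.5 CPM in the knockout, against 2.21, 1.37 and 1.46 CPM in the controls. The lowest knockout library was far above the highest control. TFPI2 was 24.4-fold higher in the knockout (log2 fold change 4.61 ± 0.20 SE, edgeR adjusted p = 6.42e-07). It ranked 82nd among rises and had the 10th smallest p of 16331 genes. TFPI2 over TFPI was 0.651, 0.612 and 0.477 in the knockout, against 0.0163, 0.0113 and 0.00851 in the controls, 49.5-fold higher (exact permutation p = 0.1, 2-sided; 0.15 adjusted over 6 ratios).

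GNGT1 overlaps TFPI2 on the opposite strand in GENCODE 29, and the sources used here do not say whether counting used strand. It had 82, 69 and 78 counts in the knockout against 49, 39 and 63 in the controls and did not pass (log2 fold change 0.41 ± 0.31 SE, and −0.04 with cyclic loess). Of 5 fibroblast and stellate markers, LUM and PDGFRB rose and 3 of 5 were tested. Their summed level was 8.47 to 18.1 CPM in the knockout against 1.86 to 2.42 CPM in the controls, highest in knockout replicate 2, where COL1A1 had 165 counts. In knockout replicates 1 and 3 COL1A1 had 23 and 4 counts, and in control replicates 1 to 3 it had 7, 0 and 0. DCN had 4, 36 and 0 counts in the knockout and 0 in each control. LUM had 200, 183 and 141 counts in the knockout against 23, 36 and 25 in the controls, and PDGFRB 145, 125 and 149 in the knockout against 26, 38 and 27 in the controls, so both were higher in all knockout libraries. Of 7 endothelial markers, TEK and ERG were at 0 in all 6 libraries. CDH5, KDR, CLDN5 and VWF had at most 27 counts in a knockout library and 11 in a control. PECAM1, also on this list, had 1200 to 1249 counts in the knockout and 1691 to 2110 in the controls. The summed endothelial level, nearly all of it PECAM1, was 31.1 to 35.3 CPM in the knockout against 54.6 to 70.3 CPM in the controls. The part of these cell types in the results was not tested.

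**Figure D3:**
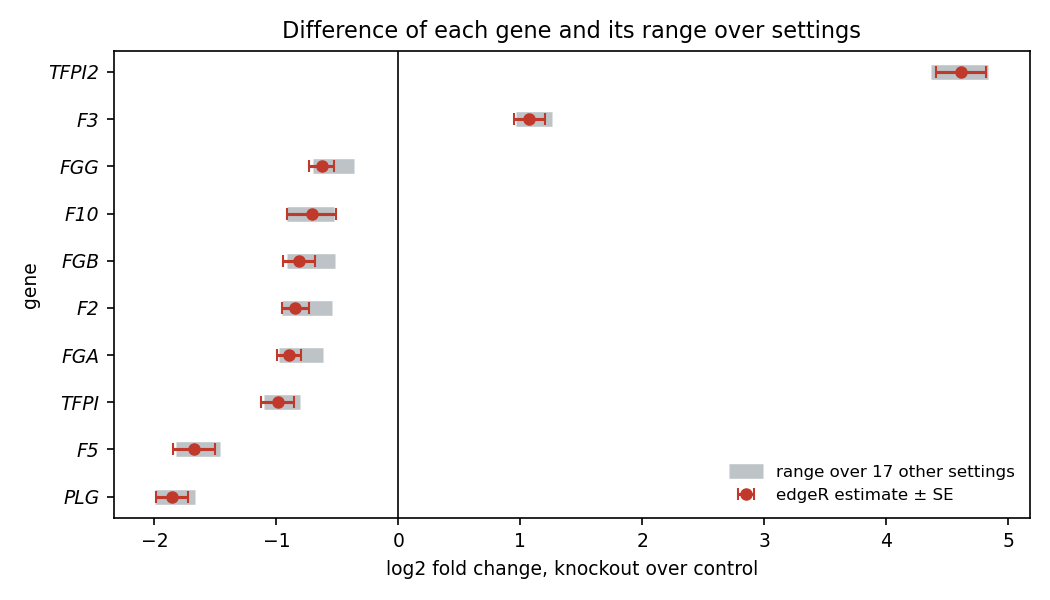
Log2 fold change, knockout over control, of each of the 10 genes (points, ± SE from edgeR) with the range over 17 other settings (grey bars). No bar crosses 0. The ends nearest 0 of the FGA, FGB, FGG and F2 bars come from cyclic loess, at −0.36 for FGG. That of F10 comes from library size alone, at −0.53.

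Levels between genes were compared in TPM, a length-scaled level, with exon lengths from GENCODE 29, since CPM favours long transcripts. In the knockout F2 was highest at 741 ± 24.5 TPM, followed by FGB (505 ± 16.5), FGG (361 ± 13.8) and FGA (361 ± 18.1; SD, n = 3 each). TFPI2 (70.0 ± 10.4) and F3 (66.2 ± 7.06) came next, ahead of F5 (40.3 ± 2.32), PLG (30.8 ± 2.21), TFPI (27.7 ± 1.25) and F10 (19.8 ± 2.92). In the controls the order was F2 (1099 ± 163), FGB (728 ± 110), FGA (552 ± 11.7), FGG (459 ± 40.4), F5 (106 ± 24.0), PLG (91.6 ± 7.63), TFPI (45.2 ± 7.08), F10 (26.9 ± 6.94), F3 (25.9 ± 3.67) and TFPI2 (2.35 ± 0.774). Neighbours with overlapping libraries were FGG and FGA and TFPI2 and F3 in the knockout, and F5 and PLG and F10 and F3 in the controls. TFPI2 stood last in the controls and took place 5 in the knockout. Much of this order depends on the length used. TFPI has 11714 bases of exon in all but a median of 768.5 bases over its coding transcripts, and with the latter lengths it took place 5 in both groups. The order after the fibrinogen genes was then TFPI, TFPI2, PLG, F3, F5 and F10 in the knockout, and TFPI, PLG, F5, F10, F3 and TFPI2 in the controls, with FGG ahead of FGA in both groups. F2 and FGB kept places 1 and 2, and TFPI2 kept the last place in the controls.

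The rest of the coagulation system is given by counts per list, beside the 19.0% that fell and 21.1% that rose over all genes. With library size alone these were 1878 and 4846 genes, against 3100 and 3448 with TMM factors. Of 10 other clotting factors 7 were tested, of which 3 fell and none rose by edgeR, DESeq2 or limma-voom (1 higher at an unadjusted p below 0.05 in edgeR). F12, the contact-phase protease factor XII, averaged 3.43 ± 0.679 CPM in the knockout and 11.8 ± 2.04 CPM in the controls (SD, n = 3 each), a log2 fold change of −1.78 ± 0.21 (SE, edgeR adjusted p = 0.000174). F13B, the carrier subunit of factor XIII, and KNG1, the kininogen gene, had log2 fold changes of −1.29 ± 0.27 and −0.74 ± 0.16 (SE). F7, the partner of tissue factor, averaged 21.4 ± 1.90 CPM in the knockout and 21.4 ± 4.04 CPM in the controls, a log2 difference of 0.00053 ± 0.16 (SE) whose sign changed under other settings. F11 did not pass (log2 fold change 0.60 ± 0.24 SE, adjusted p = 0.0766), but 1 gene of the list rose with library size alone and with upper-quartile scaling. F9 and F13A1 had 0 counts in all 6 libraries and VWF had at most 27, so these 3 were not tested. The difference between F7 and the genes that fell was not itself tested.

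Anticoagulant genes fell in the main. Of 9, 8 were tested, 6 fell and none rose by edgeR, DESeq2 or limma-voom (0 higher at an unadjusted p below 0.05 in edgeR), at a median log2 fold change of −0.73. Falls numbered 4 to 6 over the 17 other settings. SERPIND1, heparin cofactor II, averaged 22.4 ± 0.905 CPM in the knockout and 78.6 ± 6.51 CPM in the controls (SD, n = 3 each), a log2 fold change of −1.81 ± 0.11 (SE, edgeR adjusted p = 4.31e-06). The protein Z-dependent inhibitor SERPINA10, the protein C inhibitor SERPINA5 and antithrombin (SERPINC1) had log2 fold changes of −0.83 ± 0.12, −0.92 ± 0.14 and −0.64 ± 0.11 (SE).

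Fibrinolysis genes went both ways: of 12, 10 were tested, 3 fell and 3 rose. CPB2, the carboxypeptidase that protects fibrin from lysis, averaged 6.15 ± 0.799 CPM in the knockout and 25.2 ± 4.63 CPM in the controls (SD, n = 3 each). The plasmin-binding inhibitor alpha-2-macroglobulin (A2M) had a log2 fold change of −1.09 ± 0.09 and alpha-2-antiplasmin (SERPINF2) one of −1.20 ± 0.13 (SE). SERPINE2, protease nexin-1, rose, with a log2 fold change of 1.94 ± 0.11 (SE, edgeR adjusted p = 2.17e-06). The urokinase gene PLAU did not pass (log2 fold change −0.38 ± 0.20 SE, adjusted p = 0.146; 0.0202 with cyclic loess). There was 1 rise without knockout replicate 1 or 3, and at an adjusted p below 0.01.

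Of 7 genes of the vitamin K cycle and factor secretion, 4 fell and 1 rose. GGCX, which carboxylates factors II, VII, IX and X, averaged 124 ± 5.76 CPM in the knockout and 194 ± 14.1 CPM in the controls (SD, n = 3 each), a log2 fold change of −0.65 ± 0.10 (SE, edgeR adjusted p = 0.00101). The vitamin K epoxide reductases VKORC1 and VKORC1L1 had log2 fold changes of −0.76 ± 0.15 and −0.60 ± 0.10 (SE). MCFD2, a cargo receptor subunit for factors V and VIII, had one of 0.40 ± 0.10 (adjusted p = 0.00849; 0.0518 without knockout replicate 2), and its partner LMAN1 did not pass (−0.25 ± 0.13), other than without control replicate 2 (−0.40, adjusted p = 0.00700); its sign changed with cyclic loess. Rises numbered 2 with library size alone, with cyclic loess and without control replicate 2, and none without knockout replicate 2.

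Thrombin signals to cells through some protease-activated receptors. The list holds the receptor family, not only the receptors that thrombin cuts. Of its 4 genes 3 were tested, 2 rose and none fell by edgeR, DESeq2 or limma-voom (0 lower at an unadjusted p below 0.05 in edgeR). F2RL1 averaged 83.8 ± 3.94 CPM in the knockout and 49.0 ± 0.776 CPM in the controls, and F2R 56.2 ± 0.935 CPM in the knockout and 40.1 ± 2.53 CPM in the controls (SD, n = 3 each; edgeR adjusted p = 0.000275 and 0.00448). Of 9 other genes with Kunitz domains, 5 were tested, 2 rose and 1 fell. SPINT1, a membrane protease inhibitor, had a log2 fold change of 1.23 ± 0.14 (SE, adjusted p = 0.000132). The call of SPINT2 (0.72 ± 0.24) was lost without each library but knockout replicate 1 and with cyclic loess or the replicate number as a block (highest adjusted p 0.305). APLP2 had a log2 fold change of −0.40 ± 0.10 (SE) and −0.07 with cyclic loess, where its call was lost. It was lost as well without knockout replicate 2 (0.0562) and with library size alone (0.0822).

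**Figure D4:**
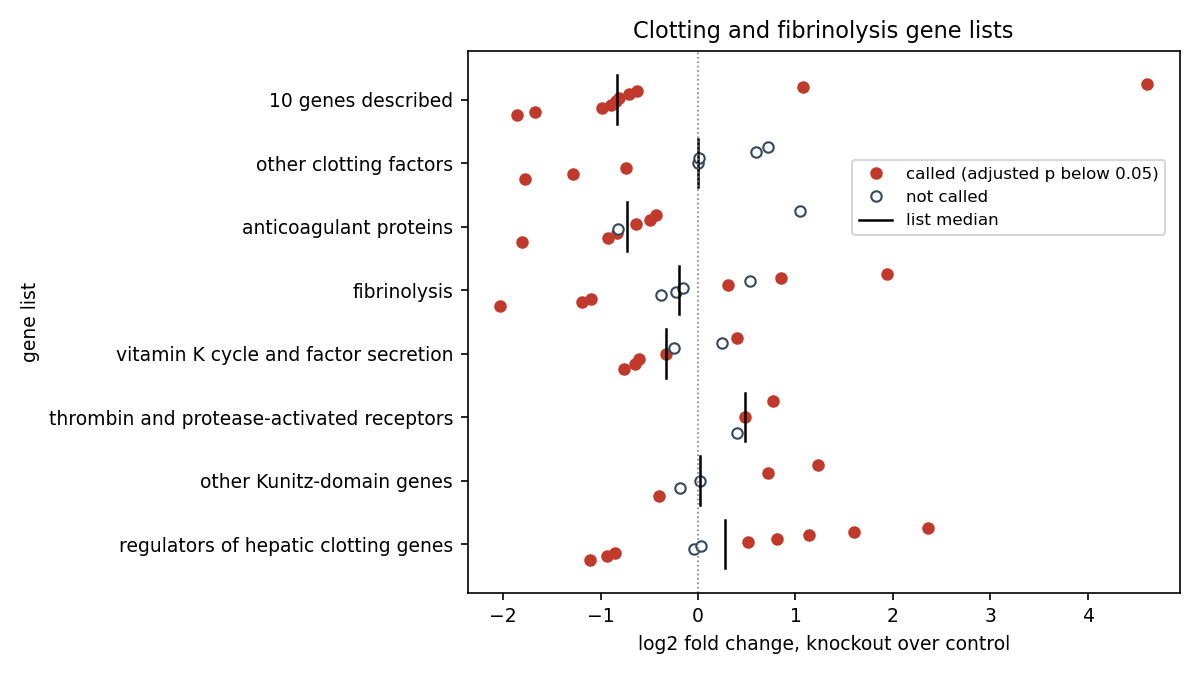
Log2 fold change, knockout over control, of every tested gene of 8 lists; filled points were called at an adjusted p below 0.05, open points were not, and black ticks are list medians. The 10 genes described sit at a median of −0.83 and anticoagulant genes at −0.73. The other clotting factors, some at low counts, have a median near 0 but a mean of −0.35, and 3 of 7 tested fell.

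Of 10 regulators of hepatic clotting genes, 3 fell and 5 rose, at a median log2 fold change of 0.27. Those that fell were the liver transcription factor genes HNF4A, FOXA2 and ONECUT1, and those that rose, IL6R, IL6ST, JAK1, STAT3 and SOCS3, belong to interleukin-6 signalling, known to drive fibrinogen in the acute phase. STAT3 averaged 267 ± 11.2 CPM in the knockout and 88.3 ± 5.99 CPM in the controls (SD, n = 3 each), a log2 fold change of 1.60 ± 0.10 (SE, edgeR adjusted p = 5.17e-06). JAK1 averaged 267 ± 10.7 CPM in the knockout and 121 ± 7.86 CPM in the controls, and HNF4A 142 ± 4.27 CPM in the knockout and 256 ± 20.6 CPM in the controls. SOCS3, a feedback inhibitor induced by STAT3, averaged 5.59 ± 0.0267 CPM in the knockout and 1.08 ± 0.536 CPM in the controls. The liver transcription factor genes CEBPA and CEBPB did not pass (log2 fold changes 0.029 ± 0.15 and −0.038 ± 0.15 SE), and the sign of both changed under other settings. These regulators were measured in the same libraries as the clotting genes, and a link between them was not tested.

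Genes with the most similar pattern over the 6 libraries were sought for the members with the largest rise and fall. The measure was the Euclidean distance of centred log2 CPM, among 13765 genes with a symbol. This distance follows mostly the difference between the groups, for which the members were picked. It therefore finds genes of similar log2 fold change, and shared regulation was not tested. For TFPI2 they were GBP1 (distance 0.51), an interferon-inducible GTPase, ANKRD1 (0.65), a muscle ankyrin-repeat protein also induced by YAP signalling, and INHBA (0.66), an activin subunit. INHBA averaged 2.95 ± 0.377 CPM in the knockout and only 0.109 ± 0.0488 CPM in the controls. Its log2 fold change ran from 3.52 to 5.07 over the 17 other settings. For PLG they were METTL7A (0.13), a lipid droplet methyltransferase-like protein, IGSF1 (0.18), a membrane immunoglobulin-family protein, and PLA2G7 (0.18), a lipoprotein-associated phospholipase. IGSF1 averaged 34.4 ± 2.57 CPM in the knockout and 125 ± 12.1 CPM in the controls (SD, n = 3 each).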

How the data were processed

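RNA-seq of 6 Huh7 libraries was used. The authors deposited whole-number counts per gene, not normalised. The submitters' processing notes name hg19, with no role; the aligner, counter, annotation and strand setting are not given here, so overlapping genes and relatives can share reads. Per the labels' protocols, libraries came from total RNA with a SMARTER mRNA kit. The table has 25202 rows, 19974 with an Ensembl ID, of which 19883 matched a symbol, and 5228 loci added by the authors' pipeline, which were kept in library sizes and tests.

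Counts were filtered by filterByExpr, TMM-scaled and compared by edgeR 4.0.16's quasi-likelihood test in R 4.3.3, with group as the single term, adjusted by Benjamini-Hochberg over 16331 genes. A call is an adjusted p below 0.05. SEs were computed as the fitted log2 fold change over the root of F. Within-library ratios and shares were compared by exact permutation tests. TPM used GENCODE 29 exon lengths, and promoters came from RefSeq (GRCh38.p14), the first window listed per gene. The code was tested on simulated data. Replicates of a group differed by at least 9.35 in chi-square per degree of freedom, so all were counted. The range was 9.35 to 28.9 between knockout libraries and 53.8 to 83.6 between control libraries. Mitochondrial genes took 4.70% of counts in control replicate 3, against 2.01% to 3.06% in the other libraries. The same replicate number in both groups did not pair libraries: correlations of deviations were 0.042, −0.071 and −0.073.

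Alternatives were 3 other scalings, cyclic loess with limma-trend (limma 3.58.1), 2 other filters, a block for the replicate number, DESeq2 1.42.0, limma-voom, no added loci, an adjusted p below 0.01 and each library left out. The genes and lists were chosen with earlier results of these data known. From each list up to 4 called genes with the smallest p are named; others named (F7, F11, PLAU, LMAN1, CEBPA, CEBPB, FOXA2, ONECUT1, IL6R, IL6ST, TTR, albumin, and marker, related or untested genes) were added after their values were seen. Some genes of these pathways are not reported here and are in no list. Figures were drawn with matplotlib 3.10.9.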

Additional observations from a re-analysis of the deposited data

How the results depend on the processing

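The 2 rises held in all 17 other settings, and the 8 falls in 12 of them, with 7 falls in the other 5, where F10 was lost. Of 1104 fold changes of 65 named genes under other settings, 1061 kept their direction and call, 19 lost a call, 8 gained one and 16 changed sign. The sign changed for 5 genes that were not called. F7 went to −0.030 with RLE size factors and with DESeq2, −0.0046 with no filter on low counts and −0.037 with cyclic loess, and ran from −0.18 to 0.11 with 1 library left out. CEBPB went to 0.066 with upper-quartile scaling, 0.15 with library size alone, 0.16 with cyclic loess and 0.0069 without added loci, and ran from −0.20 to 0.14 with 1 library left out, where CEBPA ran from −0.16 to 0.11. With cyclic loess LMAN1 went to 0.042 and GNGT1 to −0.039. Over all genes, 6548 were called, 3448 higher and 3100 lower in the knockout. At an adjusted p below 0.01 these were 3984, 2054 and 1930, and F10 (0.0179) was lost. Library size alone gave 4846 higher and 1878 lower genes and moved the all-gene median log2 fold change to 0.24. Upper-quartile scaling gave 4226 higher and 2338 lower and moved it to 0.16, as did no filter on low counts. It was −0.0044 with cyclic loess. Leaving out 1 library gave 4416 to 6895 calls, 2369 to 3459 higher and 2047 to 3439 lower, lowest without knockout replicate 1. The log2 difference of FGA over FGB ran from −0.22 without control replicate 3 to 0.016 without control replicate 2, and the cause was not tested. The other 5 ratios and both shares kept their direction throughout. With the replicate number as a block, 5739 genes were called, 3126 higher and 2613 lower, with 2 rises and 8 falls among the clotting genes; the numbers did not pair the libraries, since only knockout replicate 1 correlated best with its own number. With 3 pairs, the exact paired test cannot go below 0.25. Depth limits the control level of TFPI2, at 42 to 82 counts.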

Other observations

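Among platelet markers, PF4, PPBP and GP9 had 0 counts in all 6 libraries. GP1BA, a subunit of the platelet receptor for von Willebrand factor, had 63, 34 and 43 counts in the knockout against 181, 223 and 177 in the controls (edgeR log2 fold change −2.26 ± 0.28 SE, adjusted p = 0.0002). ITGA2B had 17 to 22 counts in the knockout and 22 to 25 in the controls and did not pass (edgeR adjusted p = 0.417; limma-trend 0.0437 with cyclic loess). CD68, on the leukocyte list, had a log2 fold change of −0.74 ± 0.15 (SE). Lysozyme (LYZ), on the leukocyte list and counted in all libraries, averaged 86.1 ± 7.48 CPM in the knockout and 311 ± 52.5 CPM in the controls (SD, n = 3 each), while PTPRC, which marks leukocytes as a class, had 7, 18 and 0 counts in the knockout and 0 in each control. The summed leukocyte level, nearly all of it CD68 and LYZ, was 218 to 238 CPM in the knockout and 509 to 578 CPM in the controls. The summed platelet level was 1.54 to 2.14 CPM in the knockout and 5.47 to 8.11 CPM in the controls.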
